A study of Canis lupus familiaris with 6 samples.

Results

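FGFR2, MET, ERBB2 and KIT are 4 genes for receptor tyrosine kinases, read here by 8 probes of a dog gene expression array that holds 43603 non-control probes. The genes were chosen by name with earlier results of these arrays known, FGFR2 from the way its difference between the arms widened with time. Their values between the arms are therefore a description and carry no test. A probe belongs to a gene where its dog RefSeq transcript is listed for that symbol, which gave 2326 probes 1 symbol each, for 1437 genes. FGFR2 has 2 such probes, MET 2, ERBB2 1 and KIT 3.

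The cells are MDCK-II, a line of dog kidney tubule epithelium, and all of them carry a short hairpin RNA against scribble that tetracycline switches on. Scribble is a scaffold protein of the basolateral cell cortex. In the tested arm tetracycline was added at 5 µg/ml 6 h after plating, and the other arm was left without it. Per the labels, RNA was taken after culture with or without tetracycline for 30, 45 and 60 h. There is 1 array for each arm and time, and each array holds the mixed RNA of 3 wells. All groups share the hairpin, so an effect of tetracycline itself and an effect of the hairpin cannot be told apart. No array repeats a condition, no probe was matched to SCRIB, and the depth of the knockdown was not analysed here.

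A receptor tyrosine kinase spans the cell membrane, binds a ligand outside, pairs with another receptor and phosphorylates tyrosines inside. Adaptor proteins dock on these and pass the signal to RAS and the MAP kinases and to PI3 kinase and AKT. FGFR2 is a receptor for fibroblast growth factors, and its epithelial splice form answers factors made by neighbouring mesenchyme, as in kidney branching. MET is the receptor for hepatocyte growth factor, which makes MDCK cells scatter. ERBB2 has no ligand of its own and works as a partner of other ERBB receptors, and KIT is the receptor for stem cell factor, used by blood, pigment and germ cells.

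On each array 64.3% to 68.8% of the 43803 non-control spots were well above background and 0 were saturated. A level below is the log2 of a probe's processed signal less the log2 of the array's 75th percentile, so that 0 stands for a signal at that percentile. Levels of different probes are not set against each other, since each probe has its own brightness. Of the 8 probes, 5 were well above background on all 6 arrays, namely those of FGFR2, MET and ERBB2. The 3 KIT probes were well above background on no array. Between conditions, fewer cells of a type and less RNA per cell cannot be told apart in mixed RNA.

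FGFR2 differed most between the arms among the 3 detected genes. Its level was lower with tetracycline at all 3 times and on both probes, and the gap was wider at each later time. Of all features tested, 21.5% were lower at all 3 times. On probe A_11_P050201 the level with tetracycline was 3.79 at 30 h, 3.36 at 45 h and 2.53 at 60 h, against 4.05, 4.47 and 4.90 without it at the same times. The arms went opposite ways over time, and no array with tetracycline reached the level of any array without it. How many of all features have arms that do not overlap was not counted. Nothing is therefore read from a lack of overlap, here or for the genes below. The difference, with minus without tetracycline, was -0.26 at 30 h, -1.11 at 45 h and -2.36 at 60 h, which is 1.20-fold, 2.16-fold and 5.15-fold lower. At 60 h the signal with tetracycline was 19.4% of that without.

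The second probe, A_11_P051586, gave the same picture. Its level was 1.29, 0.79 and -0.17 with tetracycline at 30, 45 and 60 h, and 1.52, 1.81 and 2.33 without. Here too the arms did not overlap. The differences were -0.23, -1.01 and -2.50, or 1.18-fold, 2.02-fold and 5.64-fold lower. After each probe was centred on its own mean, the pair differed by at most 0.12 on any array, while each spanned 2.36 and 2.50 over the 6 arrays. The probes share the labelled RNA of each array, so their likeness says nothing of the spread between cultures. Which FGFR2 splice forms each probe reads was not analysed here.

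On both probes the order of the 6 FGFR2 levels was the same. Without tetracycline the 60 h array was highest, then 45 h, then 30 h, and below these came the arrays with tetracycline at 30 h, 45 h and 60 h. The 30 h arrays of the arms are the closest neighbours across the gap, 0.26 and 0.23 apart on the first and second probe. With 1 array a condition there is no spread against which to judge neighbours in that order. With tetracycline the level at 60 h was 2.39-fold below that at 30 h on probe A_11_P050201 and 2.75-fold below on probe A_11_P051586. Without tetracycline it was 1.80-fold and 1.74-fold above. The gap at 60 h is thus made of a lower level in one arm and a higher level in the other.

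**Figure D1:**
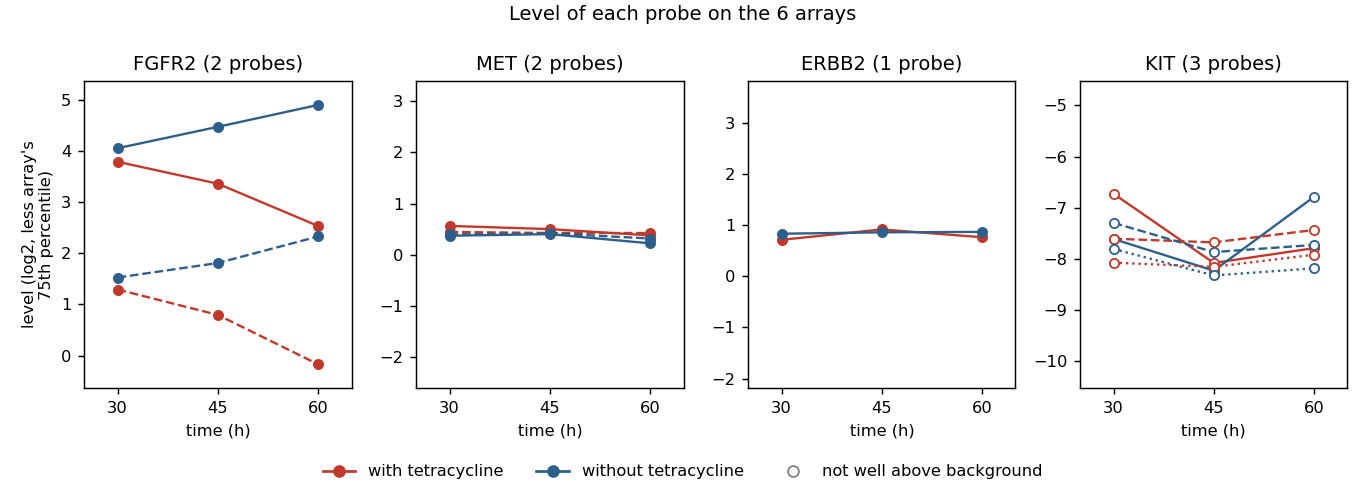
Level of every probe of the 4 genes (log2, less the array's 75th percentile) against time in h, with tetracycline in red and without in blue, 1 array per point. Line styles separate the probes of a gene, all panels span 6 log2 units, and open points are not well above background. FGFR2 levels part over time on both probes, MET and ERBB2 levels lie close together in the arms, and KIT has open points alone.

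Both 30 h arrays lie on slide 1 and both 60 h arrays on slide 2, while the 45 h pair spans both slides. The FGFR2 differences at 30 and 60 h are hence differences within a slide, and their mean was -1.31 on probe A_11_P050201 and -1.37 on probe A_11_P051586. Each arm also has 1 step in time within a slide. With tetracycline on slide 2, the level at 60 h less that at 45 h was -0.83 and -0.96 on these probes. Without tetracycline on slide 1, the level at 45 h less that at 30 h was 0.42 and 0.28.

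Set beside all features, FGFR2 was ordinary at 30 h and near the low end later. A feature is the brightest probe of a named gene or a probe with no name. At 30 h, 2673 of 27010 features that were well above background on both arrays had a difference as low as FGFR2 or lower, at 45 h 252 of 28195, and at 60 h 48 of 27612. Among named genes at 60 h, FGFR2 was the sixth lowest, with 6 of 991 at its value or below. A gap of at least 2-fold downward was held by 0.507% of features at 30 h, 1.21% at 45 h and 2.57% at 60 h. FGFR2 passed this fold at 45 and 60 h, on both probes. FGFR2 was picked from this contrast, so nothing is read from its place.

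MET lay close together in the arms. On probe A_11_P0000019689 its level was 0.56, 0.50 and 0.38 with tetracycline at 30, 45 and 60 h, and 0.37, 0.40 and 0.22 without. Each array with tetracycline was above its partner, yet the arms overlap across times, since the 60 h array with tetracycline lies under the 45 h array without it. The differences were 0.19, 0.10 and 0.16, a mean of 0.15 ± 0.05 (SD over the 3 times). On probe A_11_P053331 the level was 0.44, 0.43 and 0.42 with tetracycline and 0.40, 0.42 and 0.32 without. The differences there were 0.05, 0.01 and 0.11, a mean of 0.05 ± 0.05 (SD over the 3 times). Both probes put MET higher with tetracycline at each time, by less on the second.

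ERBB2 showed no common direction over the 3 times. Its 1 probe, A_11_P0000019935, stood at 0.71, 0.91 and 0.76 with tetracycline at 30, 45 and 60 h, and at 0.83, 0.86 and 0.87 without. The 45 h array with tetracycline was the highest of the 6 and the 30 h array with tetracycline the lowest, so the arms overlap. The differences were -0.12, 0.06 and -0.10, with a mean of -0.06 ± 0.10 (SD over the 3 times). Over all 6 arrays ERBB2 spanned 1.15-fold, MET 1.27-fold on its first and 1.09-fold on its second probe, and FGFR2 5.15-fold and 5.64-fold.

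MET and ERBB2 were not at the edge of all features. From the 5th to the 95th percentile, features had differences between -0.38 and 0.34 at 30 h, -0.54 and 0.48 at 45 h and -0.73 and 0.66 at 60 h. MET and ERBB2 lay inside these ranges at every time. At 60 h, 60.4% of features had a difference at least as large in size as that of MET and 72.0% as that of ERBB2.

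**Figure D2:**
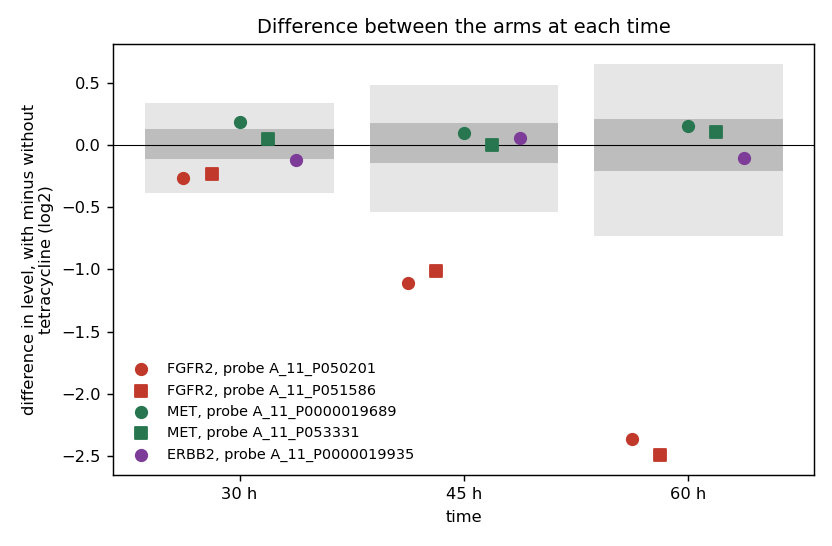
Difference in level (log2), with minus without tetracycline, at 30, 45 and 60 h for each probe of FGFR2, MET and ERBB2, 1 pair of arrays per point. Dark bands run from the 25th to the 75th and light bands from the 5th to the 95th percentile of features well above background on both arrays. Both FGFR2 probes lie below the light band at 45 and 60 h, and MET and ERBB2 stay inside it at all 3 times.

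KIT was not detected. Its 3 probes, A_11_P084686, A_11_P0000019899 and A_11_P053861, had processed signals between 1.93 and 6.01 over the 6 arrays. The dimmest spots called well above background had 9.07 to 13.6, depending on the array. The KIT signal nearest to that limit, on probe A_11_P084686 without tetracycline at 60 h, reached 55.9% of it. Signals this low have no order, so no difference between the arms is given for KIT. KIT RNA below that limit would not be seen here.

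Time in culture did not choose the genes and can be tested, with a limit for FGFR2 given below. The contrast was 60 h less 30 h over both arms, in a limma fit across 27581 features, each well above background on every array of one arm or both. FGFR2, MET and ERBB2 passed that filter and KIT did not. None of the 3 passed an adjusted p of 0.05, where 8.15% of all features did. FGFR2 stood at -0.20 ± 0.51 (SE), with a 95% interval of -1.58 to 1.17 (limma, adjusted p = 0.814), the mean of -1.25 with tetracycline and 0.85 without. The fit takes its spread from the change of the arm difference over time, the trait FGFR2 was picked for. A wide SE for FGFR2 follows from that choice, so nothing is read from its not passing. MET stood at -0.17 ± 0.08 (interval -0.39 to 0.05, limma adjusted p = 0.246) and was lower at 60 h in both arms. ERBB2 stood at 0.04 ± 0.09 (interval -0.20 to 0.29, limma adjusted p = 0.779). Both 30 h arrays lie on slide 1 and both 60 h arrays on slide 2, so time goes with slide in this contrast. A slide term can be set apart from time only through the 45 h pair, by taking the arm difference as equal at all times.

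The named genes with a course closest to that of FGFR2 were CA2, H19, PNLIPRP1, CLIC2, GAL3ST1 and MT1E. Closeness is the root mean square difference from FGFR2 (probe A_11_P050201) over the 6 arrays after centring each gene, among 970 named genes well above background on all of them. CA2, a cytosolic carbonic anhydrase of tubule cells, was closest at 0.19, where the median named gene was at 0.79. Its level was 6.68, 6.20 and 5.59 with tetracycline at 30, 45 and 60 h, and 7.05, 7.26 and 7.36 without. The differences were -0.37, -1.06 and -1.77, and the arms did not overlap. The second CA2 probe gave -0.35, -1.22 and -1.94.

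H19, an imprinted noncoding RNA, followed at 0.26. Its differences were -0.42, -1.42 and -2.72, which is 6.57-fold lower at 60 h, and the arms did not overlap. At 60 h the other genes were 2.74-fold lower for PNLIPRP1, a lipase relative, 2.59-fold for CLIC2, an intracellular chloride channel protein, 2.57-fold for GAL3ST1, which sulfates membrane glycolipids, and 3.05-fold for MT1E, a metal-binding metallothionein. All 3 CLIC2 probes were lower at each time. PNLIPRP1 rests on 1 of its 3 probes, the other two being well above background on no array, and its 60 h difference of -1.46 was -0.62 with normexp background correction. The second FGFR2 probe was at 0.07, and 0 of 26641 other features were as close. The 6 genes were picked for this likeness on the same arrays, and no statement about shared function or control follows.

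**Figure D3:**
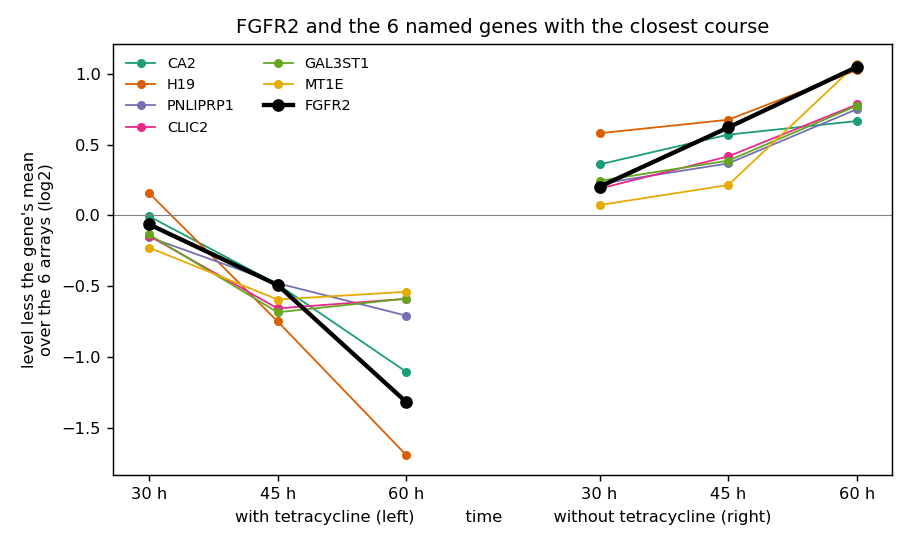
Level less the gene's mean over the 6 arrays (log2) for FGFR2 (black) and the 6 named genes of closest course, with tetracycline at left and without at right, each at 30, 45 and 60 h, 1 array per point. With tetracycline CA2, H19 and PNLIPRP1 are lower at each later time, as is FGFR2, while CLIC2, GAL3ST1 and MT1E are not lower at 60 h than at 45 h.

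The wider pathway was read through 8 lists of ligands, receptors, adaptors, cascade kinases and targets. These hold 170 genes besides the 4 receptors, of which 24 have a named probe and 17 passed the detection filter. Over these lists 0 of 17 passed an adjusted p of 0.05 for the arms, as did 0% of all features (limma). At an unadjusted p under 0.05 there was 1 gene higher, NRAS, and 0 lower. Among all features 12.4% were higher and 11.0% lower at that level, so the share in the lists is not above the background. The median of the 17 mean differences was -0.02, against 0.01 over all features.

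Most ligands could not be followed. FGF5 and FGF7, ligands of FGF receptors, were well above background on no array, and neither were HGFAC, which activates hepatocyte growth factor, and PDGFB and FLT3, a ligand and a receptor of the KIT family. HGF, the ligand of MET, and EGF, a ligand of ERBB receptors, were each well above background without tetracycline at 45 and 60 h and on no array with it, and so missed the filter. These 2 genes are singled out after their values were seen. Among all features, 30003 were well above background on any array of the 45 h pair and 28195 on both. At 60 h these counts were 29791 and 27612. Detection on only part of a pair was thus not rare. How many features share the pattern of HGF and EGF was not counted, so no loss of these ligands is read from it. HGF stood at -8.02, -8.07 and -7.83 with tetracycline at 30, 45 and 60 h, and at -7.69, -4.18 and -4.48 without. Against the dimmest detected signal of the array with tetracycline, HGF without it was 3.27-fold brighter at 45 h and 2.27-fold brighter at 60 h. An uncalled spot can be brighter than that signal, as EGF was at 30 h, so these folds are not lower bounds.

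EGF stood at -5.62, -6.79 and -6.92 with tetracycline, and at -5.22, -5.06 and -4.25 without. By the same reckoning EGF without tetracycline was 1.78-fold brighter than that signal at 45 h and 2.65-fold brighter at 60 h. At 30 h neither gene was well above background in either arm. EGF was uncalled there though brighter than the dimmest detected signals, at -5.84 with tetracycline and -5.55 without. Each rests on 1 probe and was not tested. The ligand of KIT, KITLG, was detected throughout, with levels of -0.21, -0.60 and -1.04 with tetracycline and -0.24, -0.31 and -0.57 without. Its mean difference was -0.24 ± 0.15 (SE, 3 times) and did not pass (limma, adjusted p = 0.298). PDGFA, a platelet-derived growth factor chain, had differences of -0.32, -0.56 and -0.06 (limma, adjusted p = 0.215).

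Of the other receptors, KDR, a receptor for vascular endothelial growth factor, stood at -0.03, 0.29 and 0.53 (difference, limma adjusted p = 0.289). RET, the receptor for glial cell line-derived neurotrophic factor that drives ureteric bud growth, had a difference of -1.56 at 30 h, then 0.07 and -0.04. That value rests on the 30 h array without tetracycline, and without the 30 h pair the mean difference is 0.02 in place of -0.51. CD44, a hyaluronan receptor that can assist MET, stood at -0.24, 0.10 and 0.52 with tetracycline and -0.28, -0.36 and -0.75 without. The arms did not overlap, though the 30 h arrays that bound the gap stood at -0.24 and -0.28. CD44 was 2.41-fold higher at 60 h, with a mean difference of 0.59 ± 0.36 (SE, 3 times; limma, adjusted p = 0.254). SPINT2, an inhibitor of the proteases that activate hepatocyte growth factor, was at 0.02 on the mean difference.

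Downstream, the target gene CCND1 had the widest gap upward. CCND1 encodes cyclin D1, which growth factor signalling induces to bring cells into the cycle. Its level was 2.26, 2.45 and 2.46 with tetracycline at 30, 45 and 60 h, and 2.17, 1.82 and 0.85 without. The arms did not overlap, though the 30 h arrays that bound the gap stood at 2.26 and 2.17. The differences were 0.10, 0.63 and 1.62, or 3.07-fold higher at 60 h, with a mean of 0.78 ± 0.45 (SE, 3 times; limma, adjusted p = 0.229). At 60 h, 1.86% of features were at least 2-fold higher with tetracycline. MYC, another growth-induced gene, had differences of -0.56, -0.35 and 0.68, with no single direction.

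Among the 6 RAS, MAPK and AKT genes, NRAS and MAP2K1 had the largest mean differences. NRAS, a RAS GTPase, was higher at each time by 0.25, 0.55 and 0.63 (mean 0.48 ± 0.12 SE; limma, adjusted p = 0.131), and its second probe had a mean of 0.27. MAP2K1, a kinase that phosphorylates MAP kinases, had differences of -0.01, -0.27 and -0.50 (mean -0.26 ± 0.14 SE; limma, adjusted p = 0.266). The kinase genes MAP2K2, MAPK3 and AKT2 had mean differences between -0.11 and 0.17 on their brightest probes. YES1, a SRC family kinase, stood at a mean of -0.19. For time in culture 1 of the 17 passed: HRAS, a RAS GTPase, fell by 0.70 ± 0.09 (SE) at 60 h against 30 h over both arms (limma, adjusted p = 0.0376). The HRAS call is lost without any 1 of the 6 arrays (adjusted p between 0.0678 and 0.167) and with the slide as a term (0.935), while the value itself stayed between -0.77 and -0.64 without 1 array and was -0.57 with the slide term.

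**Figure D4:**
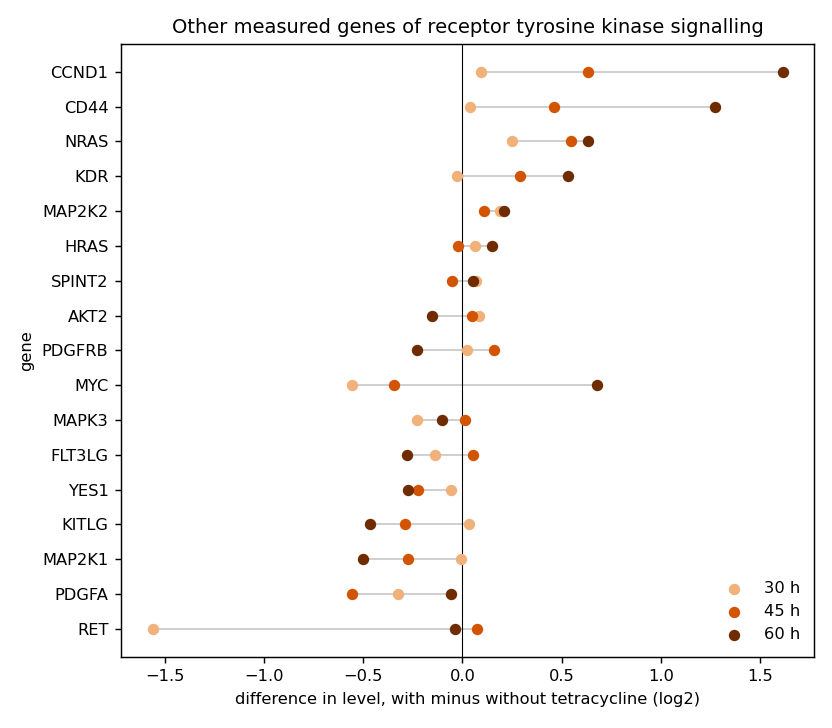
Difference in level (log2), with minus without tetracycline, at 30, 45 and 60 h for the 17 tested pathway genes, ordered by their mean, 1 pair of arrays per point. CCND1 and CD44 are at the top with their largest values at 60 h, NRAS is right of 0 at all 3 times, and RET is at the bottom through its 30 h value alone.

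The cell type was checked on markers. All 5 measured epithelial markers of 15 listed, CDH1, KRT19, CLDN2, OCLN and TJP1, were well above background on every array. Their summed level, in multiples of the 75th percentile, was 79.6 to 87.8 with tetracycline and 93.7 to 100.8 without. KRT19 made up 86.5% to 90.1% of that sum on every array, and the other 4 markers summed to 9.28 to 11.9 with tetracycline and 9.99 to 10.7 without, so they overlap between the arms. The markers did not go one way. CLDN2 had differences of 0.06, -0.38 and -1.64 on its brighter probe, with a mean of -0.65 there and -1.05 on its other probe. KRT19 had a mean of -0.25, and TJP1 a mean of -0.26 on its brighter and 0.03 on its other probe. CDH1 stood at -0.01, 0.07 and 0.51, a mean of 0.19, and OCLN at 0.11, 0.12 and 0.16. None passed (0 of 5 at an adjusted p of 0.05 in limma, with 2 lower, KRT19 and TJP1, at an unadjusted p under 0.05), and their part in the FGFR2 difference was not tested. Of the fibroblast markers 5 of 10 had a probe and the summed level was 3.60 to 3.74 with tetracycline and 3.26 to 3.76 without, with DCN not detected. COL1A1 had a mean difference of 0.59, which was 0.32 with normexp background correction, and THY1 had 0.06. COL1A2 had 0.02 on its brightest probe and down to -0.14 on the others. PDGFRB, also a receptor of the KIT family, had -0.02 on its brighter and 0.48 on its other probe. Of the endothelial markers 2 of 8 had a probe, KDR and VWF. They summed to 22.0 to 24.7 with tetracycline and 23.1 to 24.1 without, VWF having a mean difference of -0.03. VWF made up 99.1% to 99.4% of that sum, so the sum says little of KDR. Of the leukocyte markers 2 of 9 had a probe. These, CD4 and CD8A, summed to 0.0951 to 0.110 with tetracycline and 0.0943 to 0.109 without, with mean differences of 0.08 and -0.03.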

How the data were processed

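The members and gene lists were chosen with earlier results of these data known. Total RNA was labelled with Cy3 and hybridised to 1-colour Agilent arrays, 3 per arm. Per the file headers, the deposited scanner files hold linear spot intensity from Agilent Feature Extraction 11.5.1.1 (also in the submitters' processing notes), background-subtracted and detrended within each array, with no scaling between arrays, on build CanFam3.1. The flags for background, saturation and outliers are other values deposited in the same files. The deposited series matrix equals that intensity times 1 factor per array, from 2.30 to 2.62, of a basis not stated in the labels or headers. Column medians are 150.9 to 171.5, with no centring of genes, and scale and direction match the scanner files.

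Flagged spots were left out, spots of a probe were averaged, and log2 values were set against the array's 75th percentile. Symbols came from a RefSeq gene table of another assembly (UU_Cfam_GSD_1.0), used for names only. No sequence is shown. Tests used limma 3.58.1 in R 4.3.3 across all genes that passed the filter, two-sided, with Benjamini-Hochberg adjustment. The fits were also run on simulated data with the same noise spread for every feature. On these arrays the spread differs by gene, so that run does not check the calls reported here. The arm fit had time as a block and 2 residual degrees of freedom, so its p-values measure the spread of a difference over 3 times, not between cultures. Named pathway genes are those with a mean difference of at least 0.58 and 1 sign, a 2-fold difference at a time, a call for time, or the 2 largest means in a list. Genes like FGFR2 are the 6 closest. A few other list genes were added as context, and some list genes are not reported here and are left out of the list counts. The number of arrays limits the precision. Alternatives were quantile and median scaling, the series matrix, normexp on median signals (offset 50), other detection filters, the mean of a gene's probes, another prior, no time block, a slide term and left-out arrays.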

Additional observations from a re-analysis of the deposited data

Results flagged for a closer look

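For 6 of the genes described that were well above background on all 6 arrays, every step in time went one way with tetracycline and the other way without. FGFR2 had a level at 60 h less that at 30 h of -1.25 with tetracycline and 0.85 without. CA2 stood at -1.10 with tetracycline and 0.31 without, H19 at -1.85 with and 0.45 without, and PNLIPRP1 at -0.55 with and 0.53 without. These 3 were picked for their likeness to FGFR2, so for these 4 genes the difference between the arms was not tested. In the other direction, CD44 stood at 0.76 with tetracycline and -0.47 without, and CCND1 at 0.20 with and -1.32 without. The last CCND1 step with tetracycline was very small, from 2.45 at 45 h to 2.46 at 60 h. For CD44 and CCND1 the change of the arm difference with time was tested and did not pass (limma, adjusted p = 0.118 and 0.113). Of 26642 features well above background on all 6 arrays, 1097 (4.12%) had the course of FGFR2, up at each step without tetracycline and down at each step with it. The share with the opposite course, that of CD44 and CCND1, was not counted.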

How the results depend on the processing

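The FGFR2 differences kept their direction under quantile scaling, median scaling, the series matrix values and normexp correction, between -2.41 and -2.30 at 60 h on probe A_11_P050201 and between -2.55 and -2.25 on probe A_11_P051586. The mean differences of MET (0.14 to 0.16 on probe A_11_P0000019689) and ERBB2 (-0.07 to -0.04) kept their sign too, while the 45 h difference of MET on probe A_11_P053331 went to either side of 0 (-0.01 to 0.08). The number of features past an adjusted p of 0.05 for the arms, 0 in the reported fit, was 126 with normexp, 16 with a trended and robust prior, 17 with no replicate block (no time term) and 0 to 1 with a time left out. For the change of the arm difference with time, 0 in the reported fit, it was 191 with median scaling, 1577 with normexp, 2 where detection on all 6 arrays was required and 1798 with the other prior. For time in culture, 2249 in the reported fit, it was 4101 with normexp, 3771 with the other prior, and 0 with no detection filter, with a slide term and with any 1 array left out. A fit without 1 array has fewer samples, and the cause of the other shifts was not tested. FGFR2, MET and ERBB2 stayed above an adjusted p of 0.05 for time in culture under all of these, but the FGFR2 value of -0.20 was 0.53 and 0.63 without the 30 h or the 60 h array with tetracycline, -0.94 and -1.04 without the 30 h or the 60 h array of the other arm, and -0.41 with the slide term. Counts of 2-fold differences shrank with normexp, at 30, 45 and 60 h to 31, 112 and 300 lower in place of 137, 341 and 709 and to 230 higher in place of 513 at 60 h. With detection on 1 array of a pair they were 491, 911 and 1363 lower, and 908 higher at 60 h. For time in culture, the ERBB2 value of 0.04 turned to -0.04 with median scaling, -0.12 with the slide term and -0.0043 without the 30 h array with tetracycline. With normexp the mean differences of RET, PDGFA and KDR were -0.21, -0.16 and 0.18, in place of -0.51, -0.31 and 0.26. Dim probes, KIT, HGF and EGF among them, are limited by their signal over background.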

Other observations

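RET had 1 of its 4 probes well above background on all 6 arrays. That probe, A_11_P0000030504, stood at -4.70, -4.65 and -4.51 with tetracycline at 30, 45 and 60 h, and at -3.14, -4.72 and -4.47 without. The 30 h array without tetracycline is the 1 array that stands apart. RET probe A_11_P0000017560 was well above background on 1 array only, without tetracycline at 60 h.

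Over 11566 probes well above background on no array, the median difference with minus without tetracycline was -0.27 at 30 h, 0.19 at 45 h and 0.29 at 60 h.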
